A study of Mus musculus with 24 samples.

Results

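Growing axons find their way by reading cues on other cells and in the matrix around them. The genes described here encode the 4 classical families of such cues and their receptors, namely Eph receptors and ephrins, semaphorins with plexins and neuropilins, netrins with their receptors, and slits with Robo receptors. The 58 members were chosen by gene symbol from the 48709 genes of the annotation, with earlier results of these data known. They comprise 25 ligands and 33 receptors. The study had reported axonal guidance among the enriched pathways of its cortex genes, and Ephb6 among the top genes. Member counts set against all genes below are therefore not independent of those results. In the developing cortex ephrins and Eph receptors signal at cell contacts in both directions and help to sort axons by position. Semaphorins mostly repel growth cones through plexins, with neuropilins as co-receptors of the secreted class. Netrin attracts axons through Dcc and repels them through Unc5 receptors, and slits repel axons through Robo receptors at the midline and elsewhere.

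The members were measured by RNA sequencing of dissected cerebral cortex and whole blood from neonatal mice whose mothers had breathed either filtered air (control) or re-aerosolized nPM, the nano-sized fraction of traffic-related particulate matter, until the pups were born. The sample labels give the strain as C57BL/6J and the age as 3 to 5 days. The study's methods differ, giving C57BL/6NJ and day 5. There were 12 cortex and 12 blood libraries (3 males and 3 females per exposure), from neonates that the study's methods describe as drawn at random from different litters. The labels name no transgene or deletion. The pups did not inhale nPM themselves after birth, the litters behind single libraries are not named, and replicate numbers here are names without pairing. The comparisons of the members across exposure, and across exposure by sex, use cortex.

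The cortex libraries held 22301409 to 33804371 counts on genes and had RNA integrity numbers (RIN) of 9.4 to 9.9. No pair of the 66 cortex pairs was a copy, the smallest chi-square per gene being 7.64 where sampling alone gives about 1. The 9 projection neuron markers that define cortical tissue here (Tbr1, Neurod6 and Emx1 among them) were counted in every cortex library, at a sum of 946.4 to 1165 CPM (counts scaled to a common library total). One control male (number 1) stood apart in its summed choroid plexus markers, at 30.8 CPM against 234.7 to 506.3 CPM in the other 11. It also had the lowest sum of 10 striatum markers (106.7 CPM), and control female 1 the highest (414.0 CPM). Values without both are given for Ephb6, Nrp2, Ntn1 and Efna5. In bulk tissue, fewer cells of a type and less RNA per cell cannot be told apart.

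All families were expressed in neonatal cortex, with levels spread over about 3 orders of magnitude. Levels are given as CPM per kilobase of the authors' gene length, as mean ± SD of the 6 control libraries, so that genes can be compared with each other. Epha4, a receptor that binds ephrins of both the A and the B class, had the highest level of all members at 57.1 ± 3.10. Sema7a, a membrane-anchored semaphorin, followed at 46.8 ± 3.52, and the netrin and repulsive guidance molecule receptor Neo1 at 45.5 ± 5.54, so that these 2 did not differ beyond their spread, while Epha4 stood above both means by more than the SDs. Efnb3, a transmembrane ephrin known for holding corticospinal axons on their own side of the midline, stood at 38.3 ± 1.70. Ephb6, an Eph receptor without kinase activity, was next to it at 37.7 ± 2.77, again within the spread. The plexin Plxna1, which transduces secreted semaphorins, had a level of 33.4 ± 2.73.

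**Figure D1:**
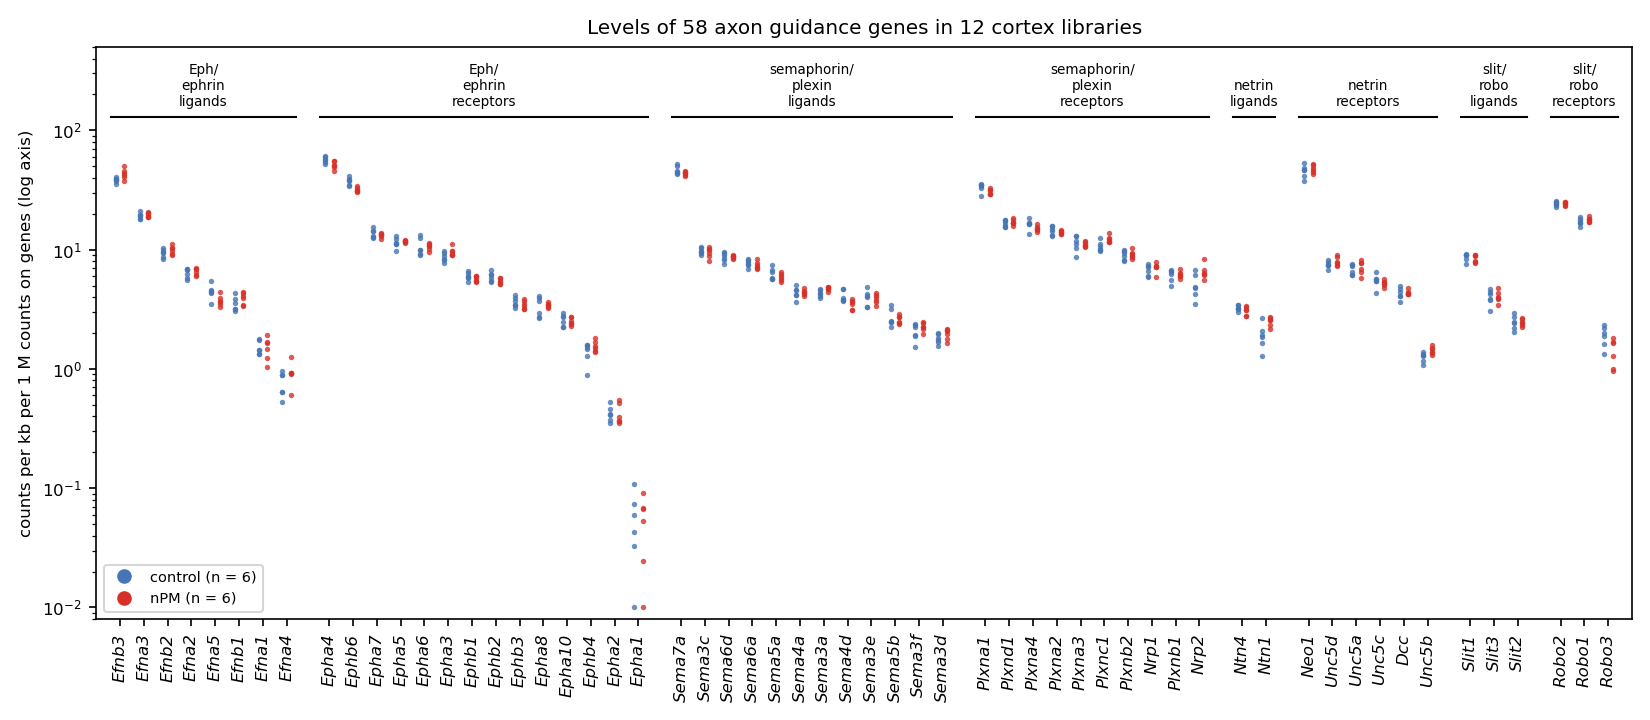
Level of each of the 58 genes (CPM per kilobase of gene length, log axis) in the 6 control (blue) and 6 nPM (red) cortex libraries, ordered within ligands and receptors of each family; a count of 0 (Epha1 only) is drawn at the bottom of the axis. Epha4, Sema7a and Neo1 lead their families, Epha1 lies near 0, and for nearly every gene the blue and red points overlap.

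Among slit and Robo genes Robo2 and Robo1 had the highest levels. Robo2 stood at 24.2 ± 1.00, Robo1 at 17.1 ± 1.19 and the ligand Slit1 at 8.73 ± 0.612. Robo3, which lets commissural axons cross the midline, was lowest in the family at 1.90 ± 0.373. In the netrin family Neo1 was followed at a distance by Unc5d (7.52 ± 0.471) and Unc5a (6.85 ± 0.655), and Unc5b was lowest at 1.25 ± 0.112. Ntn1, the secreted netrin that gave the family its name, had a level of 1.92 ± 0.464, below its attractive receptor Dcc at 4.29 ± 0.465. Among the Eph/ephrin ligands Efna3 (19.3 ± 1.17) came next after Efnb3. Plxnd1, a plexin bound by Sema3e, had 16.6 ± 1.09, and Sema3d was the lowest of the semaphorin family at 1.79 ± 0.168. Epha1 was close to absent, with 0 to 14 counts per library and a level of 0.0527 ± 0.0368. Since Epha1 shares bases with Zyx and 2010310C07Rik, even those counts may belong to a neighbour.

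The spread between control libraries differed widely among members. Setting Epha1 aside, the coefficient of variation over the 6 controls ran from 4.14% for Robo2 to 24.2% for Ntn1. Nrp2, a co-receptor of Sema3f, had 23.8%, Efna4 23.3% and Robo3 19.7%. Efnb3 (4.44%) and Epha4 (5.42%) were close to the steady end. Several members lie side by side in the genome, as Efna1, Efna3 and Efna4 do on chromosome 3 and Sema3a, Sema3c, Sema3d and Sema3e on chromosome 5. Counts of Sema5b, Ephb4, Efna4, Efnb2 and Unc5d could partly belong to overlapping genes, whose own counts came to 45.1% of those of Sema5b and to 14.6 to 15.9% of those of the other 4. The sources used here do not state whether counting used the strand.

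The first question was which of these genes differed in cortex between nPM and control neonates of both sexes. Ephb6 fell, and Nrp2 and Ntn1 rose. These 3 of 57 members passed the study's nominal cutoff of an unadjusted p of 0.005 (the cutoff meant throughout), in edgeR's quasi-likelihood test with sex and RIN as covariates, where 0.614% of all 20857 genes tested did (0.350% higher and 0.264% lower). Epha1 was not tested, since 2 libraries had no count of it. At an unadjusted p of 0.05, 15 members passed, 7 higher and 8 lower after nPM, and 5.67% of all genes did (2.73% higher and 2.94% lower). No member had an adjusted p under 0.05 in edgeR (3 genes did, 0.0144%), whereas DESeq2 gave 2 and edgeR on all genes with a count in any library gave 4. The shares of all genes in those other fits are not given. The members as a whole had no common direction, with 30 higher and 27 lower and a median log2 difference (the fitted log2 fold change, nPM over control) of 0.01 against 0.00 over all genes.

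Library nPM female 2 carried much of the count at the looser cutoff, since 7 members passed at an unadjusted p of 0.05 without it, where 3.40% of all genes did. Members were counted more deeply than most genes, with a median mean count of 1756 against 281.5 for all genes tested, and their median SE of the log2 difference was 0.06 against 0.10. Among genes with a mean count of at least 500, a limit chosen after the values were seen, 5.22% had an unadjusted p under 0.05, and 11 of the 43 members above that limit did. The 6 nPM and the 6 control libraries overlapped for every tested member, and 0.197% of all genes did not overlap.

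**Figure D2:**
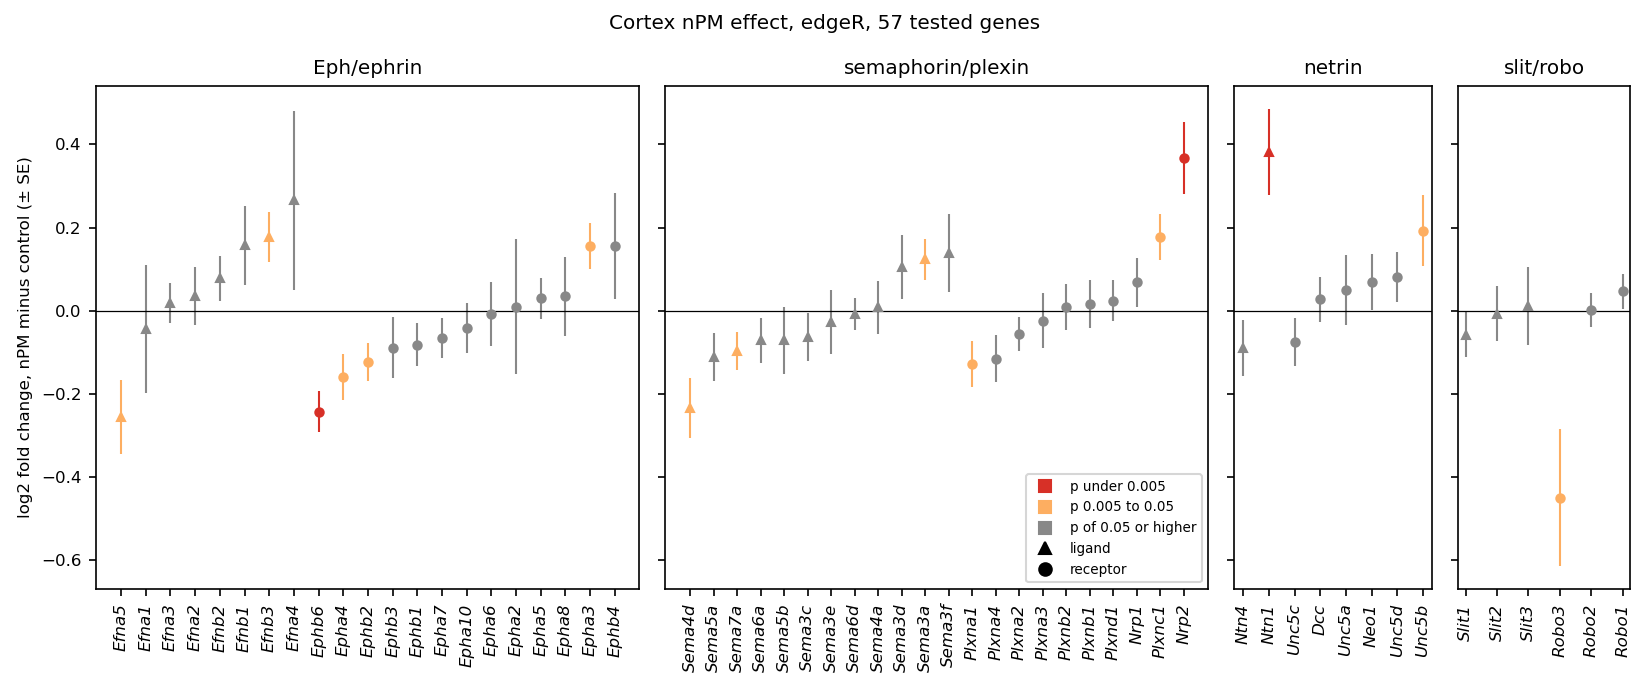
log2 difference (nPM minus control, both sexes) with its SE for the 57 tested genes by family, from edgeR with sex and RIN as covariates; triangles are ligands, circles are receptors, and colour gives the unadjusted p. Ephb6 (-0.24), Nrp2 (0.37) and Ntn1 (0.38) pass the cutoff of 0.005, and the other genes lie on both sides of 0.

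Within the Eph/ephrin family the receptors with values past 0.05 were mostly lower after nPM, and the ligands were divided. Of the 13 receptors tested, 5 were higher and 8 lower, with 3 lower (Ephb6, Epha4, Ephb2) and 1 higher (Epha3) at an unadjusted p of 0.05. Of the 8 ligands, 6 were higher and 2 lower, with Efnb3 higher and Efna5 lower at that cutoff. The summed level of the 14 receptors was 153.7 to 169.7 CPM per kilobase in the control libraries, around a median of 162.7, against 144.1 to 158.5 with a median of 150.1 in the nPM libraries. The summed level of the 8 ligands was 80.5 to 89.3 in the control libraries, around a median of 83.0, against 82.7 to 99.0 with a median of 89.6 in the nPM libraries. Both pairs of ranges overlapped.

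Ephb6 (ENSMUSG00000029869, mm10 chromosome 6, 41605482 to 41620509) had TMM-scaled values of 126.3, 157.2 and 131.2 CPM in control females and 144.9, 148.0 and 147.9 CPM in control males. After nPM it had 118.6, 116.7 and 117.1 CPM in females and 129.8, 115.6 and 123.7 CPM in males. Every nPM library lay below its own sex's controls, and the single overlap was between nPM male 1 and control female 1. The log2 difference was -0.24 (SE 0.05, edgeR p of 0.000179, adjusted p = 0.414), and an exact permutation test of the 12 values gave p = 0.00433. It was -0.26 within sequencing lane 2 and -0.21 within lane 3, and an unadjusted p under 0.005 was kept in each of the 12 fits that left out 1 library.

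Epha4 had 365.7 to 448.1 CPM after nPM and 428.6 to 492.2 CPM in controls, with all 6 nPM libraries below the control median. Its log2 difference of -0.16 (SE 0.05) missed the cutoff (edgeR p of 0.0108, adjusted p = 0.844; exact permutation p = 0.0152). It was -0.37 within lane 3 and -0.06 within lane 2. Ephb2, a receptor of B-class ephrins, had a log2 difference of -0.12 (SE 0.05, edgeR p of 0.0170; exact permutation p = 0.0563). Epha3, a receptor of A-class ephrins, was the one Eph receptor with a positive value at that level, 0.16 (SE 0.06, edgeR p of 0.0134; exact permutation p = 0.0974). Without nPM female 2, the highest Epha3 library, its p was 0.0620.

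Efna5, a membrane-anchored ephrin of the A class that repels axons bearing EphA receptors, had 13.1 to 17.9 CPM after nPM and 14.3 to 22.2 CPM in controls. The log2 difference was -0.26 (SE 0.09, edgeR p of 0.0115, adjusted p = 0.844; exact permutation p = 0.0368). Efnb3 had 120.8 to 159.9 CPM after nPM and 112.1 to 128.4 CPM in controls, a log2 difference of 0.18 (SE 0.06, edgeR p of 0.0103, adjusted p = 0.844; exact permutation p = 0.0238). Without control female 1 and control male 1, the edgeR p of Efna5 was 0.115. Without control female 1 alone, the edgeR p of Efnb3 was 0.0352.

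In the semaphorin family the ligands at an unadjusted p of 0.05 were Sema4d and Sema7a, with lower values after nPM, and Sema3a, with higher ones. Among the 10 plexins and neuropilins, Nrp2 and Plxnc1 had higher values and Plxna1 lower ones at that level. The summed levels of the 12 ligands, 95.7 to 107.2 CPM per kilobase in controls and 95.8 to 101.7 after nPM, overlapped, as did those of the 10 receptors (114.6 to 138.4 and 124.0 to 137.0).

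Nrp2 (ENSMUSG00000025969, chromosome 1, 62703285 to 62818695) binds secreted semaphorins such as Sema3f and passes their signal to A-class plexins. Control females had 78.3, 56.6 and 72.6 CPM and control males 43.0, 50.3 and 59.1 CPM. After nPM females had 75.3, 74.4 and 97.8 CPM and males 65.7, 78.8 and 72.7 CPM. The male libraries did not overlap, whereas control females 1 and 3 lay among or near the nPM females. The log2 difference was 0.37 (SE 0.09, edgeR p of 0.000669, adjusted p = 0.4926; exact permutation test, p = 0.0281). It was 0.40 within lane 2 and 0.36 within lane 3, and its unadjusted p was under 0.005 in all 12 fits with 1 library left out.

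The sequence upstream of the start is shown for the called members Ephb6 and Nrp2, from 250 to 51 bases before the RefSeq gene start on build GRCm38.p6, plus strand. Capitals mark GC boxes, the motif GGGCGG on either strand, which Sp1-type factors can bind.
Ephb6, chr6:41605261-41605460: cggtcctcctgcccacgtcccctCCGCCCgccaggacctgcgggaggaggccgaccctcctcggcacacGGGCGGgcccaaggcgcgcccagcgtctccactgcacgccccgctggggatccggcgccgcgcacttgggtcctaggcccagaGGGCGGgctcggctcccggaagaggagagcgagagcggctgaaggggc
Nrp2, chr1:62703067-62703266: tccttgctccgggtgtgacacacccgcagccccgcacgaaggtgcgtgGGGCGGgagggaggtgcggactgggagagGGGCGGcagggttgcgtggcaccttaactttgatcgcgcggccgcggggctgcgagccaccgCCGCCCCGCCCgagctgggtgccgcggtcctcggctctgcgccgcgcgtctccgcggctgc
Both stretches were rich in G and C, at 76.5% and 75.5%, against a median of 51.5% over all 32851 RefSeq windows of that length, and held 23 and 28 CpG dinucleotides where the median window held 4. The Ephb6 window had 3 GC boxes and the Nrp2 window 4, of which 2 overlap. Such a box was found in 24.6% of all windows and in 36 of the 61 windows of members, several members having more than 1 start. Entries were found for 49 of the 58 members, and none for Ntn1, the other called member. Neither window held the nuclear receptor half-site AGGTCA on either strand (11.4% of all windows did), TGACGTCA (0.828%) or TATAAA (9.14%, both strands). The windows stop 51 bases before the start, so they cannot show whether TATAAA lies closer to it.

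Nrp2's ligand and its paralog did not pass the cutoff. The ligand Sema3f had a log2 difference of 0.14 (SE 0.09, edgeR p of 0.161), and the paralog Nrp1, a co-receptor of Sema3a, 0.07 (SE 0.06, edgeR p of 0.269). Sema3a, a repellent of cortical axons, had 61.0 to 67.8 CPM after nPM and 54.8 to 65.9 CPM in controls, a log2 difference of 0.12 (SE 0.05, edgeR p of 0.0231; exact permutation p = 0.0238).

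Sema4d and Plxnc1 came closest to the cutoff without passing it. Sema4d, a membrane semaphorin that acts through plexin-B1, had 19.95 to 25.03 CPM after nPM and 23.96 to 30.97 CPM in controls, a log2 difference of -0.23 (SE 0.07, edgeR p of 0.00560, adjusted p = 0.808; exact permutation p = 0.0130). Plxnc1, the plexin bound by Sema7a, had 89.2 to 106.3 CPM after nPM and 77.6 to 98.6 CPM in controls, a log2 difference of 0.18 (SE 0.06, edgeR p of 0.00598, adjusted p = 0.826; exact permutation p = 0.0260). Without control female 1 the edgeR p was 0.0207 for Sema4d and 0.0194 for Plxnc1. Sema7a itself had a log2 difference of -0.10 (SE 0.05, edgeR p of 0.0480; exact permutation p = 0.0628). Plxna1 had -0.13 (SE 0.05, edgeR p of 0.0339; exact permutation p = 0.0541), and within the lanes its difference was -0.21 in lane 2 and 0.03 in lane 3.

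Ntn1 (ENSMUSG00000020902, chromosome 11, 68209364 to 68400823) was at 16.3, 13.1 and 10.4 CPM in control females and at 8.27, 11.6 and 12.4 CPM in control males. After nPM it was at 15.998, 16.3 and 16.97 CPM in females and at 13.6, 16.5 and 14.5 CPM in males. In males every nPM library lay above every control, and in females control 1 reached the nPM libraries. The log2 difference was 0.38 (SE 0.10, edgeR p of 0.00219, adjusted p = 0.642; exact permutation test, p = 0.0130), with 0.38 in lane 2 and 0.46 in lane 3. Leaving out control female 3 (p of 0.00684), nPM female 2 (p of 0.00958), nPM male 2 (p of 0.00668) or nPM male 3 (p of 0.00524) took the edgeR p past the cutoff.

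None of the 6 netrin receptors passed the cutoff beside their ligand. Unc5b, a repulsive receptor also used by blood vessels, had 7.66 to 9.45 CPM after nPM and 6.45 to 8.06 CPM in controls, a log2 difference of 0.19 (SE 0.09, edgeR p of 0.0387; exact permutation p = 0.0173). Dcc had 0.03 (SE 0.05), Neo1 0.07 (SE 0.07), Unc5a 0.05 (SE 0.08), Unc5d 0.08 (SE 0.06) and Unc5c -0.07 (SE 0.06), with edgeR p-values of 0.192 to 0.617 before adjustment. The second ligand, Ntn4, had -0.09 (SE 0.07).

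The slit and Robo genes held the single widest difference, though not one past the cutoff. Robo3 (ENSMUSG00000032128, chromosome 9, 37415669 to 37433163) was at 14.5, 15.7 and 12.9 CPM in control females and at 11.3, 8.99 and 13.8 CPM in control males. After nPM it was at 11.3, 6.58 and 6.73 CPM in females and at 11.1, 8.57 and 12.3 CPM in males. Females did not overlap, and males overlapped almost entirely. The log2 difference over both sexes was -0.45 (SE 0.16, edgeR p of 0.0151, adjusted p = 0.844; exact permutation p = 0.0390). Robo1 and Robo2, the main receptors of this family in cortex, had 0.05 (SE 0.04) and 0.00 (SE 0.04), and the 3 slits lay between -0.06 and 0.01.

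**Figure D3:**
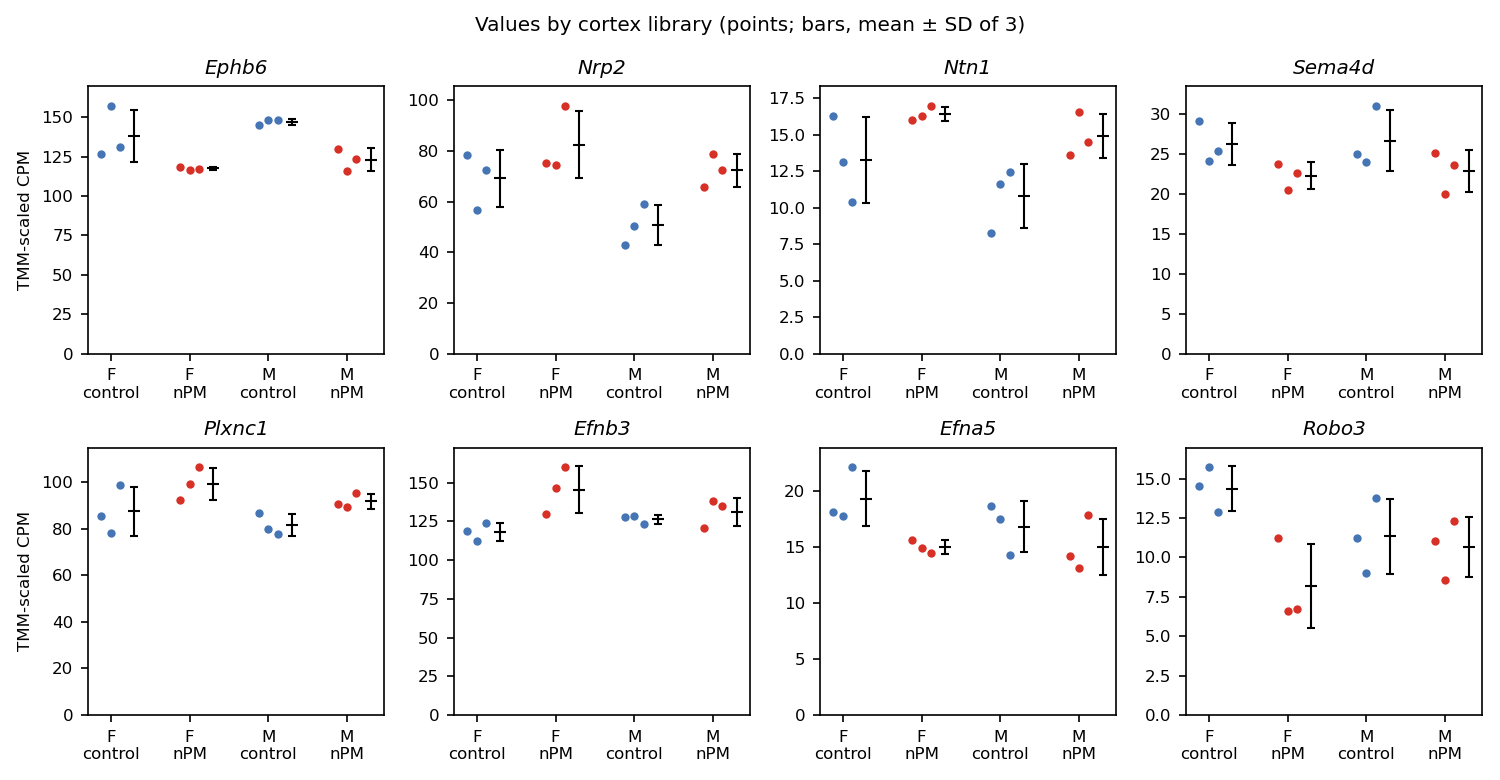
TMM-scaled CPM of 8 genes in each cortex library (points) with mean ± SD of the 3 libraries (bars) in females (F) and males (M), control in blue and nPM in red; each vertical axis starts at 0. Ephb6 is lower in both sexes, Nrp2 and Ntn1 are higher in both, and Robo3, Efna5 and Efnb3 do not overlap between the exposures in females but do in males.

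Markers of neighbouring regions and of neuron classes were read beside the called genes, because a dissection can differ between animals. All 10 striatum markers were counted in every library and had higher fitted values after nPM (4 at an unadjusted edgeR p under 0.05, Penk, Tac1, Isl1 and Six3). Their sum was 106.7 to 414.0 CPM in controls with a median of 246.1, and 261.7 to 318.0 CPM after nPM with a median of 278.0. Of 9 projection neuron markers 8 had lower values (Fezf2 is one that had a p under 0.05), with a sum of 1043 to 1165 CPM in controls and 946.4 to 1051 CPM after nPM. All 8 interneuron markers had higher values (Gad1 and Gad2 at p under 0.05), with a sum of 278.7 to 423.4 CPM in controls and 346.0 to 409.5 CPM after nPM. Of 11 hypothalamus and amygdala markers 4 were counted in every library. Of these Lhx8 was higher at p under 0.05, and Trh was lower and past the cutoff (log2 difference -0.33, edgeR p of 0.00395). The list summed to 7.67 to 10.7 CPM in controls and 7.72 to 10.7 CPM after nPM.

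These sums ran alongside the called genes in part. Control male 1, lowest in striatum markers, was also the lowest library for Nrp2 and Ntn1, and control female 1, highest in striatum markers, was the highest control for both. The part of region markers in the 3 calls was not tested in a model. With both of these controls left out, a choice made after seeing the data, all 3 calls held, with log2 differences of 0.32 (SE 0.09, edgeR p of 0.00377) for Nrp2, 0.37 (SE 0.09, p of 0.00151) for Ntn1 and -0.29 (SE 0.06, p of 0.000227) for Ephb6. In the controls kept, the striatum sums were 173.9, 229.1, 263.2 and 272.1 CPM, against 261.7 to 318.0 CPM after nPM. That fit therefore did not match the exposures in region markers, whose part in the calls was still not tested. Ephb6 ran in the order of the projection neuron sum among the nPM libraries. It went from 115.6 CPM at a sum of 946.4 CPM (nPM male 2) to 129.8 CPM at 1051 CPM (nPM male 1). The controls did not keep that order, and control male 2, with the lowest control sum (1043 CPM), had 148.0 CPM of Ephb6. Among meninges markers Dcn had a log2 difference of 0.62 (SE 0.14, edgeR p of 0.000376), 2 of the 4 were higher, and their sum overlapped between the exposures (84.6 to 278.4 CPM in controls and 104.9 to 170.0 CPM after nPM). All 5 choroid plexus markers had higher values, none past 0.05, and no thalamus, endothelium, microglia, oligodendrocyte, astrocyte or red cell marker passed 0.05.

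**Figure D4:**
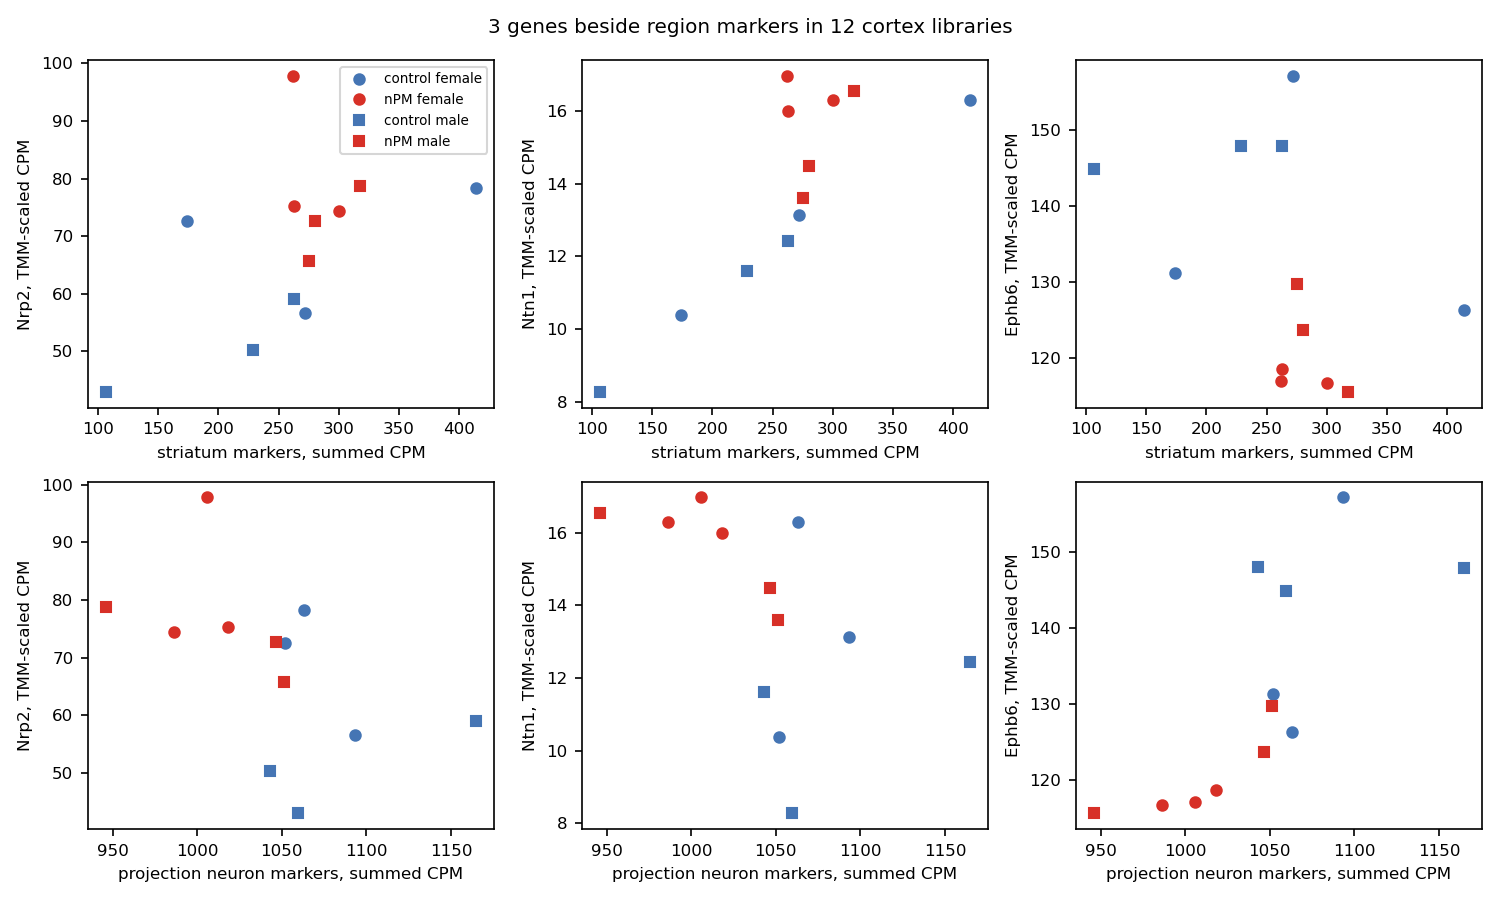
TMM-scaled CPM of Nrp2, Ntn1 and Ephb6 in each of the 12 cortex libraries against the summed CPM of 10 striatum markers (top) and 9 projection neuron markers (bottom); blue is control, red is nPM, circles are females and squares are males. The nPM libraries lie between 261.7 and 318.0 CPM of striatum markers. The controls span 106.7 (control male 1) to 414.0 (control female 1), and the other controls lie between 173.9 and 272.1. Control male 1 is lowest in striatum markers, Nrp2 and Ntn1.

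The second question was how the members behaved within each sex, and whether the sexes differed. With 3 libraries per group an exact permutation test within a sex cannot go below p = 0.1, so edgeR values are given. In female cortex 5 of 57 members passed the cutoff, Efnb3 upward and Robo3, Efna5, Ephb6 and Plxna4 downward, where 4.02% of the 21731 genes tested in females did (1.19% higher and 2.83% lower). At an unadjusted p of 0.05 there were 19 (5 higher and 14 lower), where 15.4% of genes did (6.41% higher and 9.00% lower), and no member had an adjusted p under 0.05 (1.11% of genes did). Within females 11 of the 57 members did not overlap between the exposures, as 21.6% of all genes did not. The members' median log2 difference in females was -0.05, and that of all genes was 0.00.

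Efnb3 rose in females from 118.5, 112.1 and 124.1 CPM to 129.7, 146.3 and 159.9 CPM, a log2 difference of 0.30 (SE 0.07, edgeR p of 0.000891, adjusted p = 0.0602). Robo3 fell by 0.80 on the log2 scale (SE 0.18, edgeR p of 0.000920, adjusted p = 0.0616). Efna5 fell in females from 18.1, 17.8 and 22.2 CPM to 15.7, 14.9 and 14.5 CPM, a log2 difference of -0.39 (SE 0.10, edgeR p of 0.00150, adjusted p = 0.0751). Plxna4, a plexin that mediates semaphorin 3A repulsion, fell from 230.0, 235.5 and 259.5 CPM to 210.2, 209.0 and 218.9 CPM (log2 difference -0.19, SE 0.05, edgeR p of 0.00393). Ephb6 in females had -0.25 (SE 0.07, edgeR p of 0.00387). None of the 5 kept an unadjusted p under 0.005 without nPM female 2, where the values were 0.00634 for Efnb3, 0.00532 for Robo3, 0.00912 for Efna5, 0.0227 for Ephb6 and 0.0250 for Plxna4.

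Other single libraries also carried these female calls. Without nPM female 3 the edgeR p was 0.0177 for Efnb3, 0.00877 for Robo3, 0.00582 for Efna5 and 0.00672 for Ephb6. Without control female 2 it was 0.00694, 0.00584 and 0.0239 for Efnb3, Robo3 and Ephb6 and 0.00642 for Plxna4. Without control female 1 it was 0.00617 for Efnb3, 0.00512 for Efna5 and 0.00537 for Plxna4, and without control female 3 it was 0.0355 for Efna5 and 0.0583 for Plxna4. Without nPM female 1 it was 0.00948 for Ephb6 and 0.0136 for Plxna4. The log2 difference of Ephb6 was -0.14 without control female 2, and that of Efnb3 was 0.18 without nPM female 3. Without control female 3 it was -0.12 for Plxna4 and -0.26 for Efna5. Some calls also ended under other fits with all libraries. Plxna4 passed in 6 of 9 of them, with an edgeR p of 0.0197 when all 12 cortex libraries were fitted together, 0.00541 with no RIN covariate and 0.00502 with the scaling of DESeq2. Ephb6 passed in 7 of 9, with a p of 0.00509 in limma voom and 0.00507 under edgeR's filterByExpr. Robo3 passed in 8 of 9, with a p of 0.0115 in DESeq2.

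In male cortex 1 of 57 members passed, Nrp2, where 0.318% of the 21670 genes tested in males did (0.185% higher and 0.134% lower). Nrp2 rose by a log2 difference of 0.51 (SE 0.13, edgeR p of 0.00342, adjusted p = 0.962), and the call was lost without control male 1 (p of 0.0121), control male 2 (p of 0.00573), nPM male 2 (p of 0.00971) or nPM male 3 (p of 0.0388). At an unadjusted p of 0.05 there were 6 members, 4 higher and 2 lower, where 4.51% of genes passed (2.49% higher and 2.03% lower), among them Ephb6 (-0.25, SE 0.07, edgeR p of 0.00623), Ntn1 (0.49, SE 0.19, p of 0.0256), Plxnc1 (0.19, SE 0.07, p of 0.0257) and Sema3c (-0.22, SE 0.08, p of 0.0201). Each of Ephb6, Ntn1, Plxnc1 and Sema3c had an unadjusted p above 0.05 in at least 1 fit with a library left out. For Ephb6 the edgeR p was 0.0603 without nPM male 3, and its log2 difference stayed between -0.28 and -0.21 over these fits. Ntn1 had 0.26 without control male 1 (edgeR p of 0.116). Without nPM male 3 Plxnc1 had 0.12 (p of 0.317) and Sema3c -0.12 (p of 0.294), and with no RIN covariate the Sema3c value was -0.07 (p of 0.541). Within males 6 members did not overlap between the exposures, and 9.17% of all genes did not. The median log2 difference of the members in males was 0.06, and that of all genes was 0.00.

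**Figure D5:**
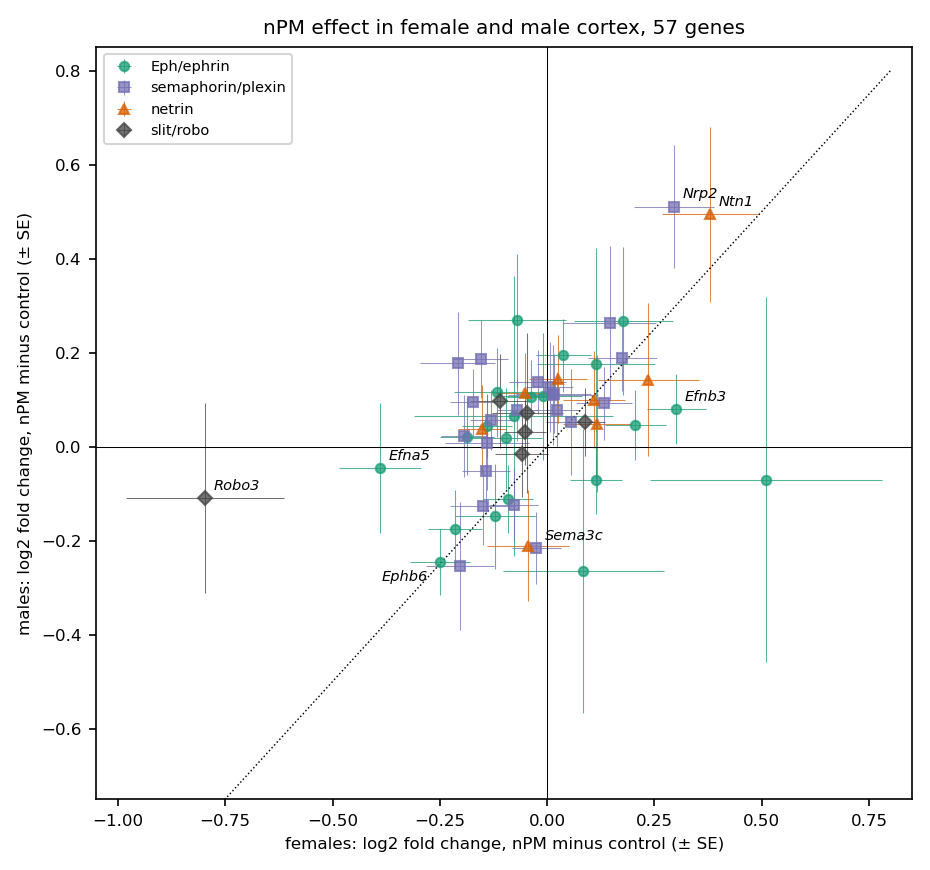
log2 difference (nPM minus control) with SE in females (horizontal) and males (vertical) for 57 genes, coloured by family, with the dotted line at equal values. Ephb6 lies near the dotted line in both sexes, Nrp2 and Ntn1 are positive in both, and Robo3 and Efna5 lie far to the left with male values near 0.

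The difference between the sexes was itself tested with an exposure-by-sex term, and no member passed the cutoff (1.35% of 20857 genes did). At an unadjusted p of 0.05 there were 6 members, where 9.68% of genes passed. Robo3 had the widest value, a male minus female difference of 0.68 in the log2 difference (SE 0.30, edgeR p of 0.0400, adjusted p = 0.496). Plxna3, an X-linked plexin, had a difference of 0.28 (SE 0.12, edgeR p of 0.0319), with -0.16 in females and 0.19 in males. Sema6a, a transmembrane semaphorin that binds A-class plexins, had 0.22 (SE 0.10, edgeR p of 0.0394). Efnb3 had -0.25 (SE 0.11, edgeR p of 0.0379) and Efna3, an A-class ephrin, -0.20 (SE 0.09, edgeR p of 0.0447). Each of these 5 had an unadjusted p above 0.05 in at least 1 fit with a library left out. Without nPM female 3 the difference was -0.11 for Efnb3 (edgeR p of 0.314) and 0.44 for Robo3 (p of 0.188). Without nPM male 3 it was 0.13 for Sema6a (p of 0.188), and without control male 3 it was 0.18 for Plxna3 (p of 0.0904). Efna3 had an edgeR p of 0.109 without nPM male 3, and of 0.103 when genes with a count in any library were kept. With no RIN covariate the Plxna3 value was 0.21 (p of 0.124). For Ephb6 the sexes' values differed by 0.00 (SE 0.10) and for Nrp2 by 0.16 (SE 0.18).

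The level itself was also compared between the sexes, a comparison added after seeing the data. With exposure and RIN in the model, Nrp2 had a male minus female value of -0.41 on the log2 scale (SE 0.10, edgeR p of 0.000693, adjusted p = 0.521). It was the only one of 57 members past the cutoff, where 0.518% of genes were. Without control female 1 no member passed. At an unadjusted p of 0.05 there were 6 members, all lower in males, where 6.09% of genes passed (3.20% lower), and Ntn1 was among them (-0.30, SE 0.12, p of 0.0198).

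The rest of the pathway was read from a list of 70 further genes, and 68 of them were tested. Ntng1, a membrane-anchored relative of the netrins, rose by a log2 difference of 0.34 (SE 0.09, edgeR p of 0.00140, adjusted p = 0.598), the 1 gene of the list past the cutoff of 0.005. The call was lost without control female 1. The other 18 ligands and receptors tested had unadjusted p-values of 0.05 or more, with a median log2 difference over the 19 of 0.02. Among 49 cytoplasmic effectors 27 were higher and 22 lower with a median of 0.01. Mical2, an actin-oxidizing enzyme of the family that acts downstream of semaphorins, had -0.26 (SE 0.09, edgeR p of 0.00811), and Kalrn, a guanine nucleotide exchange factor, -0.13 (SE 0.06, edgeR p of 0.0343).

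In whole blood the members were scarce, and their levels are described without a test. Of the 58 genes, 15 had a count in each of the 12 blood libraries, 9 had a median count of 10 or more, and none had a higher median level in blood than in cortex. Plxnc1 (median 0.623 CPM per kilobase), Sema4d (0.521; T cells carry it) and Plxna4 (0.431) led the list, followed by Sema4a (0.275) and Plxnb2 (0.259). In cortex the same 5 genes had medians of 11.5, 3.73, 15.96, 4.38 and 9.00. Blood library control female 2 stood apart, being the highest of the 12 for 51 members, with 2100 counts of Nrp2 where the median library had 3. Its summed meninges markers were 2352 CPM, against 7.35 to 30.9 CPM in the other 11. Without this library the highest blood level of Nrp2 was 0.0824 CPM per kilobase, that of Ephb6 0.194 and that of Plxnc1 1.11.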

How the data were processed

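The authors checked reads with FastQC, trimmed them with Trimmomatic, used HISAT2 for alignment to mm10, and ran featureCounts 1.5.0-p3 with the Gencode M11 annotation. The count table they deposited holds 48709 genes and 24 libraries without normalization, and a companion table gives coordinates and lengths. Its column of mean expression over all libraries was not used.

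Tests used the quasi-likelihood F test of edgeR 4.0.16 (R 4.3.3, two-sided) with TMM scaling, keeping each gene that had 1 or more counts throughout the libraries fitted. Benjamini-Hochberg adjustment ran over all genes kept. Models had exposure, sex and RIN, with an exposure-by-sex term added, or exposure and RIN within a sex. Unadjusted p-values are those of edgeR unless another test is named. They set each difference against the spread between these libraries, taken as independent, with no term for litter. The SE is the absolute log2 fold change divided by the square root of F. The TMM-scaled CPM divides by effective library sizes. Exact permutation tests were two-sided, and the smallest p for 6 against 6 is 0.00216. Lane differences are of mean log2 CPM.

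Named were members with an unadjusted p under 0.05 in both sexes, the 3 highest and the lowest of each family, the 5 smallest p of the interaction, female and male fits, Ephb6, and other guidance genes with an unadjusted p under 0.005. Further genes named were chosen after their values were seen. The members and lists were chosen with earlier results of these data known. Alternatives used limma 3.58.1, DESeq2 1.42.0, other scaling, filters and covariates. Scripts were tested on simulated data. Libraries of a tissue come from separate neonates, blood and cortex share animals, which the labels do not pair, and counts carry no molecular identifiers.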

Additional observations from a re-analysis of the deposited data

Results flagged for a closer look

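One value of the 58 sample groups checked (the 29 named members, 6 control and 6 nPM cortex libraries each) lay far from the rest of its group. Epha3 in nPM female 2 was at 63.9 CPM, while the other 5 nPM libraries had 51.2 to 54.9 CPM, and its gap made up 0.705 of the group's range. Chance alone sets about 1 in 20 groups apart by this measure.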

How the results depend on the processing

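Counts of members past an unadjusted p of 0.005 changed most with the filter on low counts, and the cause was not tested. The shares of all genes past 0.005 under these other fits are not given, so the counts below cannot be read against a background. Keeping genes with counts in only some libraries as well gave 10 for both sexes (3 in the report), 11 for females (5), 3 for males (1), 2 for the exposure-by-sex term (0) and 3 for the other guidance genes (1). DESeq2 gave 5 members for both sexes and 2 other guidance genes. A lane covariate gave 8 in females, and no RIN covariate gave 2 in males. With 1 library left out the counts ran from 2 (without nPM female 2 or nPM male 2) to 7 (without control male 3; 5 without control male 1, nPM female 1, nPM male 1 or nPM male 3) for both sexes, from 0 (without nPM female 2; 3 without control female 2) to 6 for females, from 0 (without control male 1, control male 2, nPM male 2 or nPM male 3) to 1 for males, from 0 to 1 for the exposure-by-sex term (Robo3 without nPM female 1, Plxna3 without nPM female 3), and from 0 (without control female 1) to 3 (without control male 2 or nPM male 3) for the other genes. Ephb6 and Nrp2 passed in the fit of both sexes under all 8 other choices of test, scaling, filter and covariates, as did Ntn1. None of the 20 named members refitted under the alternatives changed direction, and the 9 named for their level alone (Epha1, Sema3d, Plxnd1, Neo1, Unc5a, Unc5d, Slit1, Robo1 and Robo2) were not refitted. Over those 8 the adjusted p was 0.00105 to 0.490 for Ephb6, 4.07e-08 to 0.608 for Nrp2 and 0.00301 to 0.826 for Ntn1. All 3 lowest values came from the same filter, the one that kept genes with a count in any library. No paired analysis was possible because the labels give no replicate numbers that exposures share. With 3 libraries per sex and exposure, an exact permutation test within a sex cannot go below 0.10, and a count of 0 allows up to 0.135 CPM in the shallowest cortex library.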
